A study of Mus musculus with 6 samples.

Results

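Bone morphogenetic protein (BMP) signalling was followed through 9 genes in cultured WT and Ucp1-KO brown adipocytes: the ligands Bmp2, Bmp4, Bmp7, Bmp8b and Gdf10, the receptor Bmpr1a, and the secreted antagonists Chrdl1, Grem1 and Nog. They are 9 of the 22466 gene symbols with a RefSeq transcript in the deposited table, and for Chrdl1, the member with 2 such transcripts, the transcript with the highest mean over all cultures was used. Grem1 and Gdf10 were taken from the list of differential genes that the study drew up from the same contrast in the same cultures. The other 7 members were added as BMP genes known from adipose tissue, with earlier results of these data known. The genotype values of the members were therefore described and not tested.

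The study prepared stromal-vascular cells of interscapular brown fat from male mice aged 5 to 6 weeks and differentiated them in vitro. All mice were of the 129SvEvS1 strain, 3 independent cultures were wildtype (WT 10, 11 and 12) and 3 were UCP1(-/-) (Ucp1-KO 13, 14 and 15), and all received the same induction and differentiation media, which contained rosiglitazone. The labels give no further treatment. The Ucp1 locus of the knockout still yields a remnant transcript without function, and Ucp1 RPKM ran from 981 to 1775 in WT and from 307 to 409 in Ucp1-KO cultures. Total RNA was sequenced, and the values are RPKM (reads scaled by the length of each transcript and the depth of each culture), which allow levels to be compared between genes. The RPKM values correspond to scaling totals of 14989604 to 17727653 reads per culture, and 3 reads on a transcript of 2000 bases equal 0.0846 RPKM in the deepest culture. Adipocyte markers (7 genes, among them Adipoq, Fabp4 and Cidea) summed to 30499.9 to 32004 RPKM in WT and 31177 to 34268 RPKM in Ucp1-KO cultures, and all 7 were detected in every culture.

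BMP ligands are secreted dimers of the transforming growth factor beta superfamily. They bring together type I receptors such as BMPR1A and type II receptors, which phosphorylate SMAD1, SMAD5 and SMAD9, and these enter the nucleus with SMAD4 to act on targets such as the Id genes. Gremlin 1, noggin and chordin-like 1 bind ligands outside the cell and keep them from the receptors, and BMP4, BMP7 and BMP8B are known for roles in the commitment and thermogenic activity of adipose cells.

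The members with every WT culture above every Ucp1-KO culture were Grem1, Gdf10 and Bmp4, and the 250 bases before their transcription starts are shown because these 3 shared this order of the genotypes. Sequences are from RefSeq (GRCm38.p6), with promoters of 5 of the 9 members at hand, and are written on the strand of the gene, 5′ to 3′. Grem1 covers chr2:113758649-113758898 on the minus strand, Gdf10 chr14:33923337-33923586 on the plus strand and Bmp4 chr14:46390670-46390919 on the minus strand. Capitals mark the motif GGCGCC, the CCAAT box and the TATA box (searched as TATAAA), on both strands.
Grem1: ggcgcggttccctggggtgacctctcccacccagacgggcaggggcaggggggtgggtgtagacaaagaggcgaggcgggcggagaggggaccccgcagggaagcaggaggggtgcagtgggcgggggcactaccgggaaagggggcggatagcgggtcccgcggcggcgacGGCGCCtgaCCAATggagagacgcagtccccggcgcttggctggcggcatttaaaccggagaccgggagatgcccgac
Gdf10: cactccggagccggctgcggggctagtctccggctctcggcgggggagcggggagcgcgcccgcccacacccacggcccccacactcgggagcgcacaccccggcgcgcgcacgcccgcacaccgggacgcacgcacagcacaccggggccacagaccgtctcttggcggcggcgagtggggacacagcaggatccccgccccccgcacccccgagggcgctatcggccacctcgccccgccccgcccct
Bmp4: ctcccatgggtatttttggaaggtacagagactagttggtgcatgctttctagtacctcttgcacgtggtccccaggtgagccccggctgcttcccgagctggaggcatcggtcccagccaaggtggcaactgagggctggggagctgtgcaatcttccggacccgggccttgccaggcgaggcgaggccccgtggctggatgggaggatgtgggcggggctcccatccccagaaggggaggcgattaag
The Grem1 sequence held GGCGCC at -78 and CCAAT at -69, counted from the first base of the motif back from the start, and the 2 matches do not overlap. The Gdf10 and Bmp4 sequences held none of the 3 motifs. Of 32851 promoter sequences of this length, 9.59% held GGCGCC, 33.8% CCAAT and 12.4% TATAAA. GC content was 72% for Grem1, 78.8% for Gdf10 and 63.2% for Bmp4, each above the upper quartile of all promoters (61.2%; median 52.4%). The same held for Bmpr1a (78.8%) and Bmp8b (65.2%), whose genotypes overlapped, and the Bmpr1a sequence held both GGCGCC and a CCAAT box, as that of Grem1 did.

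Among the ligands, Gdf10 and Bmp4 were the abundant members and both had lower levels in Ucp1-KO cultures. Gdf10 (NM_145741; chr14:33923587-33937983, plus strand) encodes growth differentiation factor 10, also known as BMP3B. It was at 3.82, 9.30 and 4.58 RPKM in WT 10, 11 and 12, and at 2.24, 1.71 and 0.903 RPKM in Ucp1-KO 13, 14 and 15, from 34 to 390 reads per culture. WT 11 stood high among the WT cultures, and the genotypes did not overlap. The Ucp1-KO mean of 1.62 ± 0.675 RPKM was 27.4% of the WT mean, which was 5.90 ± 2.97 RPKM (SD, n = 3 each). On the log2(RPKM + 1) scale, which understates differences of low transcripts, the fold change was -1.35 ± 0.32 (SE), and -1.02 without WT 11. In bulk RNA, fewer cells of a type and less RNA per cell cannot be told apart.

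Bmp4 (NM_007554; chr14:46383520-46390669, minus strand), a ligand of BMPR1A, was at 3.64, 6.10 and 4.38 RPKM in the WT cultures and at 2.39, 2.47 and 1.14 RPKM in the Ucp1-KO cultures. Again WT 11 was the highest and Ucp1-KO 15 the lowest culture, and the genotypes did not overlap. The Ucp1-KO mean of 2.0 ± 0.749 RPKM was 42.5% of the WT mean of 4.71 ± 1.26 RPKM (SD, n = 3 each), with a log2 fold change of -0.94 ± 0.24 (SE). Gm15217 and Gm15222 overlap the Bmp4 locus on the opposite strand, and no source states that the libraries kept strand, so that reads of such partners cannot be told apart.

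The ligands Bmp8b, Bmp2 and Bmp7 were near the limit of detection. Bmp8b (NM_007559; chr4:123105165-123132099, plus strand), known as a thermogenic factor of brown fat, was represented by 10, 3 and 3 reads in WT and 16, 19 and 5 reads in Ucp1-KO cultures, or 0.0576 to 0.199 and 0.113 to 0.375 RPKM. The genotypes overlapped. Bmp2 (NM_007553; chr2:133552159-133562885, plus strand) had 1, 4 and 6 reads in WT and 3, 6 and 4 reads in Ucp1-KO cultures. Bmp7 (NM_007557; chr2:172868012-172940321, minus strand), which can direct precursor cells towards a brown fate, had 1 read in WT 12, 2 reads in Ucp1-KO 15 and was listed at 0 in the other cultures. With no group of Bmp7 above 3 reads, no fold was computed, and a difference was not detectable at this depth. This floor of 3 reads covers counting error only.

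The receptor Bmpr1a (NM_009758; chr14:34410734-34503341, minus strand), the type I receptor for BMP2 and BMP4, was the most abundant member and had the fold change nearest to 0 of the 6 members fitted. It was at 20.3, 23.1 and 22.7 RPKM in WT and at 20.7, 21.4 and 22.0 RPKM in Ucp1-KO cultures, from 1809 to 2210 reads. The 3 Ucp1-KO cultures lay within the WT range. The Ucp1-KO mean of 21.3 ± 0.684 RPKM was 96.8% of the WT mean of 22.1 ± 1.49 RPKM (SD, n = 3 each), with a log2 fold change of -0.04 ± 0.09 (SE).

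Of the antagonists, Grem1 had every WT culture above every Ucp1-KO culture, and the genotypes overlapped for Nog and for the Chrdl1 transcript used. Grem1 (NM_011824; chr2:113746164-113758646, minus strand) was at 1.14, 2.56 and 1.86 RPKM in WT and at 0.189, 0.354 and 0.407 RPKM in Ucp1-KO cultures, from 32, 70 and 54 against 5, 10 and 10 reads. Each WT culture was thus above each Ucp1-KO culture, and the Ucp1-KO values rest on few reads. The Ucp1-KO mean of 0.317 ± 0.114 RPKM was 17.1% of the WT mean of 1.85 ± 0.708 RPKM (SD, n = 3 each). Grem1 reached the minimum mean of 0.5 RPKM, applied to all transcripts before fitting, only through its WT cultures. Its log2 fold change was -1.09 ± 0.20 (SE) with 1 RPKM added, -2.20 with 0.1 RPKM added and -2.47 on reads recovered from the RPKM, so that the size depends on how low values are treated.

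Nog (NM_008711; chr11:89300638-89302332, minus strand), which encodes noggin, was at 0.640, 1.22 and 1.23 RPKM in WT and at 0.548, 0.483 and 0.764 RPKM in Ucp1-KO cultures. WT 10 lay below Ucp1-KO 15, and the groups overlapped. The log2 fold change was -0.33 ± 0.16 (SE), -0.66 with 0.1 RPKM added and -0.74 on recovered reads. Chrdl1 (NM_031258; chrX:143285674-143394262, minus strand), a chordin-like antagonist of BMP4, was at 5.02, 7.62 and 6.33 RPKM in WT and at 4.54, 4.51 and 5.38 RPKM in Ucp1-KO cultures. WT 10 lay below Ucp1-KO 15 here too. Its log2 fold change was -0.32 ± 0.15 (SE) and -0.20 without WT 11, and its other RefSeq transcript, NM_001114385, was at 1.89 to 2.52 RPKM in WT and 1.29 to 1.77 RPKM in Ucp1-KO cultures, without overlap.

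**Figure D1:**
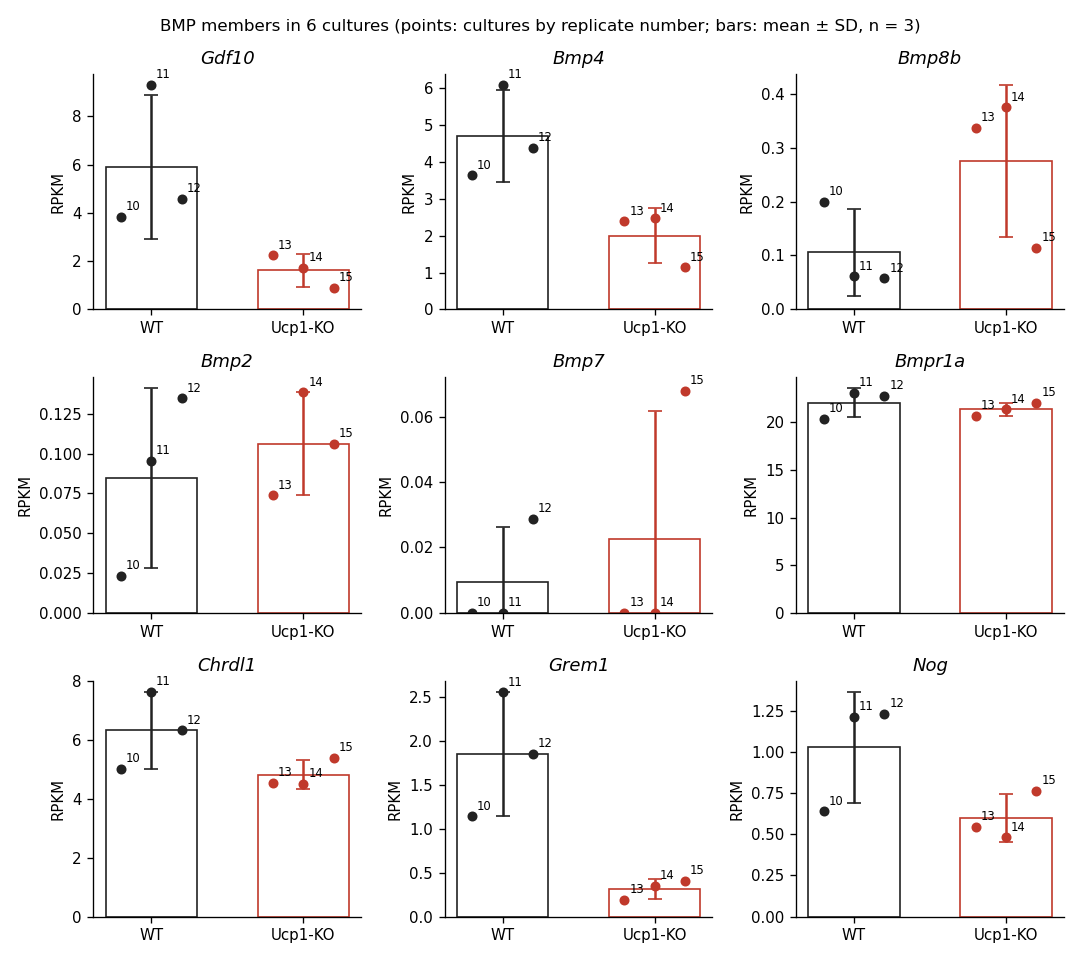
RPKM (vertical axis, linear, from 0, with a scale of its own in each panel) of the 9 members in WT (black) and Ucp1-KO (red) cultures. Points are cultures with their replicate numbers, bars are means and error bars are SD (n = 3). Gdf10, Bmp4 and Grem1 have every WT point above every Ucp1-KO point, whereas the Bmpr1a points of Ucp1-KO cultures (20.7 to 22.0 RPKM) lie within those of WT (20.3 to 23.1 RPKM).

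Across members, 3 of 9 had every WT culture above every Ucp1-KO culture and 6 overlapped. Of all 16865 RefSeq transcripts that reached the minimum mean of 0.5 RPKM, 5.15% had every WT culture above every Ucp1-KO culture, and 11.2% did not overlap in either direction. Nothing is read from the members' count, since Grem1 and Gdf10 were selected on this contrast. Among the 7 members that the study's list did not supply, Bmp4 was the only 1 without overlap. The 6 members with a mean of at least 0.5 RPKM had a lower mean in Ucp1-KO cultures, and the 3 rarer ones had a higher mean. WT 11 was the highest culture for 5 of these 6, and WT 12 was for Nog.

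Ordered by mean level, Bmpr1a stood first and did not overlap with Chrdl1, the next member, in any culture. Chrdl1, Gdf10, Bmp4, Grem1 and Nog followed, and neighbours among them overlapped in their ranges over the 6 cultures. Compared within cultures, Chrdl1 was above Gdf10 in 5 of 6 and Bmp4 above Grem1 in 6 of 6, whereas Gdf10 was above Bmp4 and Grem1 above Nog in 3 of 6 each. In both of these pairs the 3 were the WT cultures, and the order was reversed in every Ucp1-KO culture. Nog lay above Bmp8b in every culture. Bmp8b, Bmp2 and Bmp7 closed the order with overlapping ranges, and Bmp8b was above Bmp2 in 4 of 6 and Bmp2 above Bmp7 in 6 of 6 cultures.

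The limma fit over all 16865 transcripts called 0 (0%) at an adjusted p under 0.05, and 5.54% had an unadjusted p under 0.05. The smallest adjusted p was 0.868. The Benjamini-Hochberg adjustment was taken over all of these transcripts. Ucp1, the targeted gene, had the smallest unadjusted p (0.000157 by limma) and did not pass the adjusted threshold either. The absence of calls is therefore no evidence of equal levels. The study's own DESeq2 comparison of these cultures did list differential genes, among them Ucp1.

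The same genotype difference was examined in 69 further genes of the BMP pathway in 6 groups by role, of which 45 had a mean of at least 0.5 RPKM and are called measured. None passed the adjusted threshold of limma. By sign, 37 of the 45 had a lower and 8 a higher mean log2 value in Ucp1-KO cultures, with a median log2 fold change of -0.17. Over all transcripts, 8496 were lower and 8369 higher, with a median of -0.00. At an unadjusted p under 0.05, 10 pathway genes (22.2%) were called, 1 higher and 9 lower, against 5.54% over all transcripts. That count ran from 2 (4.44%, against 5.16% over all transcripts) without Ucp1-KO 15 to 18 (40%, against 9.14%) without Ucp1-KO 13, so that the larger share in the pathway was not seen without Ucp1-KO 15. It was 4 (8.89%) without WT 11 or without Ucp1-KO 14, against 1.88% and 3.57% over all transcripts, and 5 (11.1%, against 2.61%) without WT 12.

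Of the 11 ligands outside the members, the 2 that reached 0.5 RPKM had a higher value in Ucp1-KO cultures, with a median log2 fold change of 0.38. Gdf5, a ligand known from joint and cartilage formation, was the pathway gene with the smallest unadjusted p and the only 1 of the 45 with every Ucp1-KO culture above every WT culture, an order found in 6.04% of all transcripts. The opposite order was found in 8 of the 45, against 5.15% of all transcripts. Gdf5 was at 5.23, 3.39 and 3.41 RPKM in WT and at 6.33, 7.89 and 6.02 RPKM in Ucp1-KO cultures. The log2 fold change was 0.64 ± 0.17 (SE), with an unadjusted p of 0.00810 and a limma adjusted p of 0.868. Bmp3, a ligand that can oppose other BMPs, was at 2.5 to 3.31 RPKM in WT and 2.83 to 3.54 RPKM in Ucp1-KO cultures, and the groups overlapped. Of the ligands under 0.5 RPKM, Bmp6 had a WT mean of 0.507 and a Ucp1-KO mean of 0.462 RPKM, Bmp5 of 0.333 and 0.240 RPKM, Bmp8a of 0.213 and 0.158 RPKM and Gdf6 of 0.277 and 0.0877 RPKM, and the genotypes overlapped in all 4. Gdf3 had the opposite order of means (0.0563 and 0.179 RPKM), also with overlap.

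All 10 measured extracellular antagonists and modulators had a lower mean log2 value in Ucp1-KO cultures, with a median log2 fold change of -0.47. Stromal (8 of 8 lower, median -0.48), mural (5 of 5 lower, median -0.55) and endothelial markers (4 of 4 lower, median -0.44) moved in the same direction, and adipocyte (7 of 7 higher, median 0.14) and macrophage markers (5 of 5 higher, median 0.33) in the other. The macrophage sum was 803 RPKM in Ucp1-KO 14, 160 and 41.4 RPKM in Ucp1-KO 13 and 15, and 55.4 to 169 RPKM in WT cultures. The endothelial sum was 33.2 RPKM in WT 11, 2.76 and 15.3 RPKM in WT 10 and 12, and 5.55 to 15.6 RPKM in Ucp1-KO cultures. The macrophage and endothelial directions thus rest largely on 1 culture each. The part of these cell types in the values of the pathway lists was not tested. Fst and Fstl3, follistatins that bind ligands of the superfamily, had log2 fold changes of -0.70 and -0.61, each without passing the adjusted threshold (0.868 by limma). Fst was at -0.46 without WT 10 and Fstl3 at -0.38 without WT 11. Crim1, a transmembrane protein that binds BMPs, was at -0.33. The genotypes overlapped for Fst and not for Fstl3 or Crim1. By level, Fstl1 (mean 82.7 RPKM), Smoc1 (47.7 RPKM) and Twsg1 (14.8 RPKM) were the most abundant antagonists, all above Chrdl1.

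All 4 measured ligand processing enzymes, the proprotein convertases Furin, Pcsk5 and Pcsk6 and the chordin-cleaving protease Bmp1, also had a lower mean log2 value in Ucp1-KO cultures (median log2 fold change -0.40). Pcsk6 was at -0.36 ± 0.11 and Pcsk5 at -0.44 ± 0.16 (SE), with unadjusted p of 0.0125 and 0.0312 and a limma adjusted p of 0.868 each. Pcsk5 was at -0.28 without WT 11. Bmp1 had the highest mean of the list (22.6 RPKM), followed by Furin (16.8 RPKM) and Pcsk5 (3.80 RPKM). Of the 9 measured receptors and co-receptors, 8 were lower (median -0.12), with Acvr1, a type I receptor, at -0.41 and the unadjusted p of 0.0405. Eng (10.5 RPKM), Bmpr2 (9.21 RPKM) and Acvr2a (7.45 RPKM) were the most abundant of these, and Bmpr1a was above all 3.

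Of 11 SMAD transducers and inhibitors, 9 were lower (median -0.14). Smad7, an inhibitory SMAD, was at -0.45 ± 0.17 (SE; unadjusted p 0.0320), and the phosphatase Ppm1a (43.1 RPKM) and the ubiquitin ligases Smurf1 (15.2 RPKM) and Smurf2 (14.2 RPKM) were the most abundant. Of 9 measured target genes, 6 were lower and 3 higher (median -0.13). Msx1, a homeobox target, was at -0.42 ± 0.15 (SE; unadjusted p 0.0281). Id3 (182 RPKM), Id1 (29.4 RPKM) and Id2 (16.9 RPKM) were the most abundant targets. Id1, a direct SMAD target, was at 27.4 to 29.3 RPKM in WT and 28.4 to 33.3 RPKM in Ucp1-KO cultures, and the groups overlapped.

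**Figure D2:**
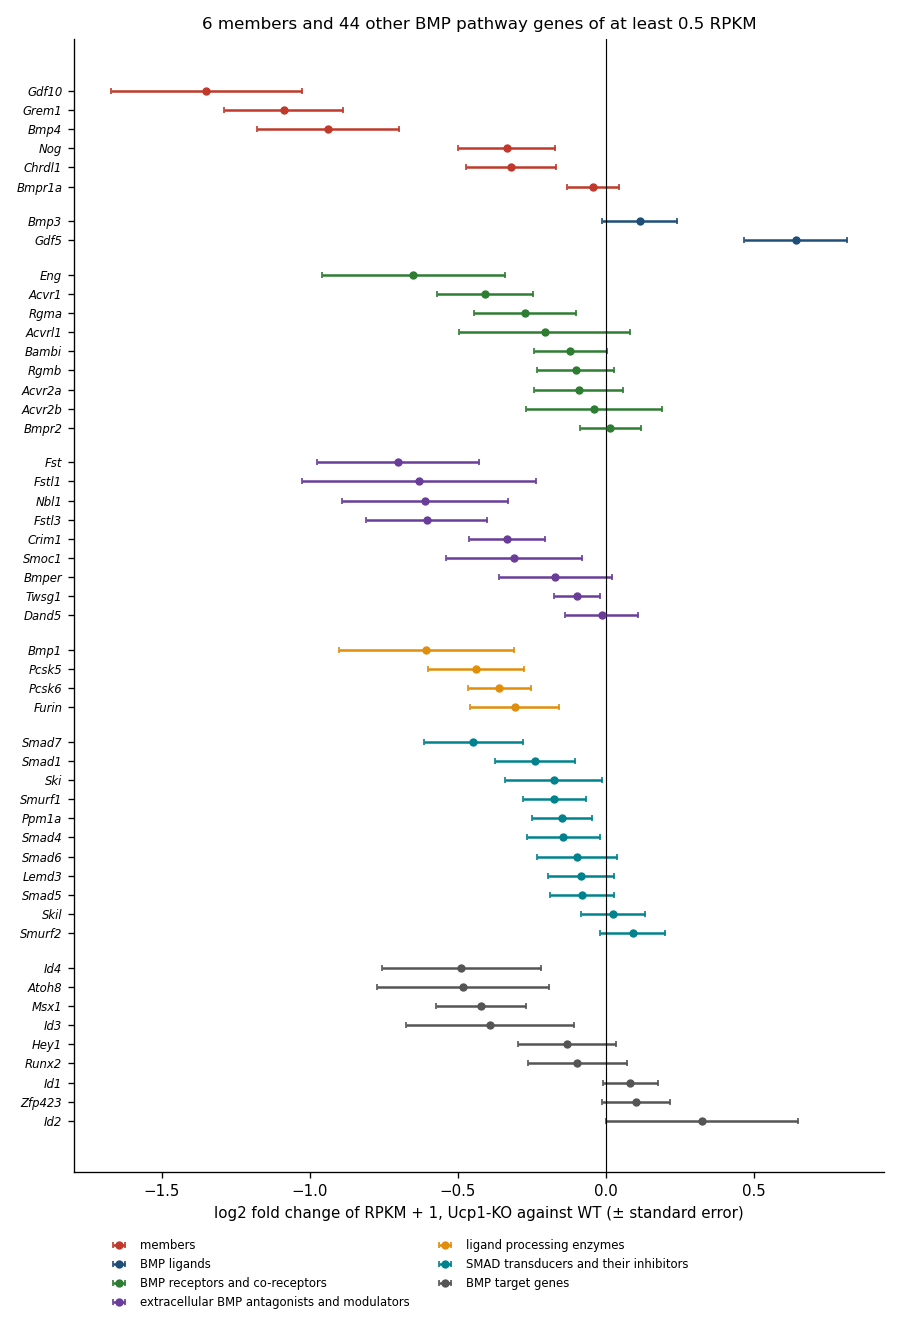
Log2 fold change of RPKM + 1, Ucp1-KO against WT (horizontal axis), with standard errors from the limma fit, for the 6 members with a mean of at least 0.5 RPKM and 44 of the 45 other pathway genes, coloured by role. The antagonists and processing enzymes lie left of 0, and Gdf5 lies farthest to the right at 0.64.

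The share of each ligand in the ligand transcripts was described without a test, and that of Gdf10 follows in part from how Gdf10 was selected. Summed over 16 BMP-family ligands, RPKM was 17.2, 23.7 and 16.5 in WT and 16.1, 17.4 and 11.9 in Ucp1-KO cultures, so that the groups overlapped. Gdf10 gave 29.8 ± 8.73% of this sum in WT and 10.5 ± 3.20% in Ucp1-KO cultures (SD, n = 3 each). Bmp4 gave 24.5 ± 2.94% and 12.9 ± 2.88%. Gdf5 gave 21.8 ± 8.08% and 45.2 ± 5.71%, and was the ligand with the highest share in each Ucp1-KO culture and in WT 10. Bmp3 gave 15.5 ± 3.56% and 21.5 ± 2.04%. The genotypes did not overlap in the shares of these 4 ligands, although they overlapped in the RPKM of Bmp3. Nothing is read from this count, since the shares depend on each other and no background was taken for them. Shares in 1 culture add to 100%, so that a lower share of Gdf10 and Bmp4 raises that of the others.

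**Figure D3:**
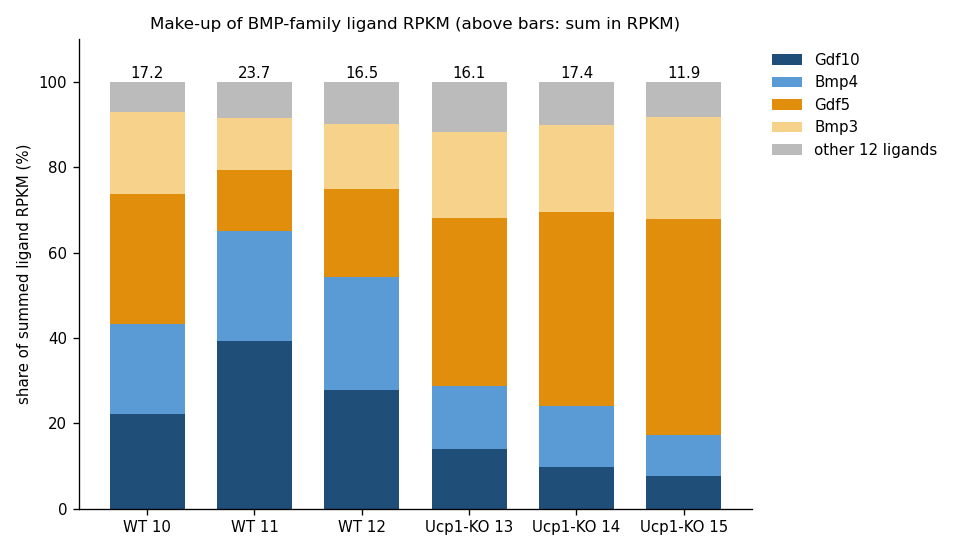
Share of summed ligand RPKM (vertical axis, %) given by Gdf10, Bmp4, Gdf5, Bmp3 and the other 12 ligands in each culture, with the summed RPKM above each bar. Gdf10 and Bmp4 together take a larger part of the WT bars than of the Ucp1-KO bars, and Gdf5 takes 39.3% to 50.7% of the Ucp1-KO bars against 14.3% to 30.4% of the WT bars.

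Markers of the other cell types such cultures can hold varied between cultures. The 11 preadipocyte and stromal markers summed to 743, 1699 and 1027 RPKM in WT and to 1003, 923 and 629 RPKM in Ucp1-KO cultures; 8 of them were measured at 0.5 RPKM or more, all 8 with a lower mean log2 value in Ucp1-KO cultures (median log2 fold change -0.48), although Ly6a had a higher mean RPKM there (122 against 114 RPKM), and none was at 0 in all cultures. WT 11 and Ucp1-KO 15 were thus the highest and the lowest culture for this sum, as for Bmp4 and Gdf10. WT 10 had a lower stromal sum than Ucp1-KO 13 and 14, and it had higher levels of Gdf10 (3.82 against 2.24 and 1.71 RPKM), Bmp4 (3.64 against 2.39 and 2.47 RPKM) and Grem1 (1.14 against 0.189 and 0.354 RPKM). The collagens Col1a1 and Col3a1 weighed heavily in this sum, with 263 and 186 of 743 RPKM in WT 10 and 568 and 718 of 1699 RPKM in WT 11. The list itself was not uniform: Col1a1 was lower in WT 10 (263 against 429.8 and 299 RPKM), whereas Dcn (55.4 against 35.4 and 47.9 RPKM) and Pdgfra (20.9 against 18.8 and 17.1 RPKM) were higher. The 5 mural markers summed to 118 to 199 RPKM in WT and 36.0 to 162 RPKM in Ucp1-KO cultures, and all 5 had a lower mean log2 value (median -0.55). The 5 endothelial markers summed to 2.76 to 33.2 and 5.55 to 15.6 RPKM, the 5 macrophage markers to 55.4 to 169 and 41.4 to 803 RPKM, and the 5 skeletal muscle markers to 2.55 to 6.19 and 2.39 to 10.7 RPKM. The part of other cell types in the member values was not tested.

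**Figure D4:**
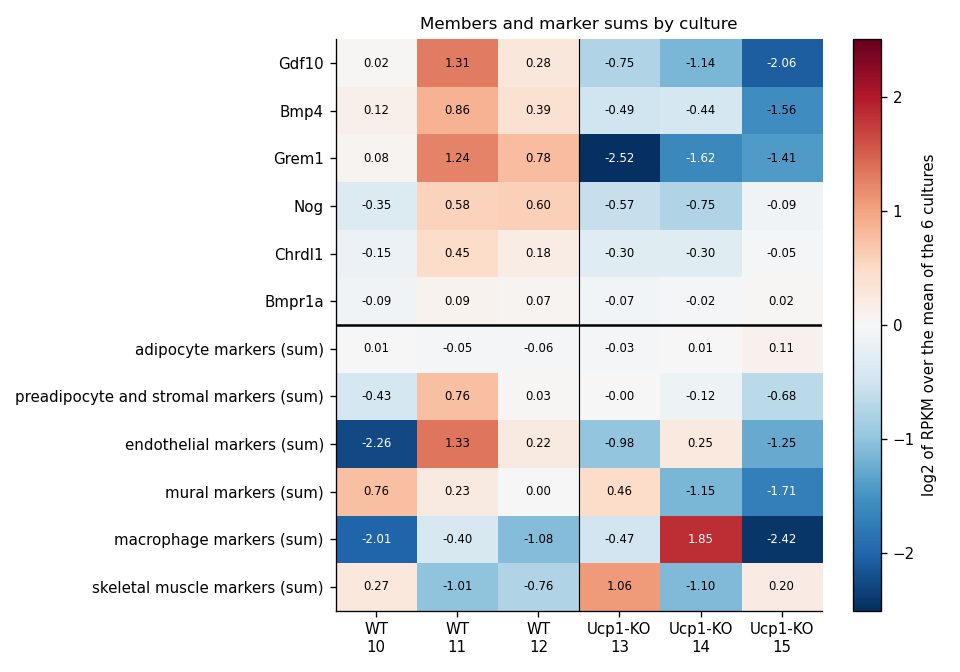
Log2 of RPKM over the mean of the 6 cultures (colour and printed value) for 6 members and for summed markers of 6 cell types, by culture. The WT 11 column is above its mean for all 6 members and for stromal, endothelial and mural markers, and adipocyte markers stay within -0.06 to 0.11.

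The genes with the pattern most like that of Grem1 over the 6 cultures, by the root mean square difference of centred log2(RPKM + 1), were Cfi, Kng1, Galnt9, Dcn and Rtn4rl2 (0.158 to 0.196). Dcn (NM_001190451), which encodes the matrix proteoglycan decorin and is also in the stromal list, was at 53.5, 90.7 and 67.1 RPKM in WT and at 34.5, 46.0 and 33.0 RPKM in Ucp1-KO cultures. Since 1 RPKM is added, a low transcript such as Grem1 can score as alike to an abundant one such as Dcn although their ratios between the genotypes differ. Those most like Gdf10 included Cd200, Socs3, Il13ra1 and Serpina3n (0.151 to 0.226). Cd200, the nearest, was at 3.34, 10.4 and 5.05 RPKM in WT and at 2.24, 2.18 and 1.36 RPKM in Ucp1-KO cultures. Like Grem1 and Gdf10, the genes Cfi, Kng1, Galnt9, Rtn4rl2 and Cd200 are in the study's list of differential genes. Their likeness therefore follows in part from selection on the same contrast, and nothing further is read from it.

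The table lists the members in 45 rows, 10 from RefSeq, 13 from Ensembl and 22 from other cDNA sequences, and many of these share reads. Every WT culture was above every Ucp1-KO culture in 14 rows (5 of 6 for Bmp4, 4 of 6 for Grem1, 2 of 2 for Gdf10 and 3 of 6 for Chrdl1). Nothing is read from this count, since rows share reads and Grem1 and Gdf10 were selected on this contrast. This order was found in 3.36% of all 168326 rows of the table, and in 5.15% of the RefSeq transcripts that averaged 0.5 RPKM or more. The opposite order was found in 1 row, a cDNA of Bmpr1a (AK132051; WT at 20.7, 21.3 and 21.2 RPKM, Ucp1-KO at 22.0, 21.5 and 22.2 RPKM), and in 5% of all rows. Bmp8b had 1 Ensembl row, ENSMUST00000151850, a processed transcript with 45, 44 and 39 reads in WT and 43, 46 and 38 reads in Ucp1-KO cultures. This row shares 133 of its 1326 exon bases (chr4:123130422-123130554) with Ppie, which lies on the opposite strand and had a mean of 10.4 RPKM, so that the origin of these reads is uncertain.

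**Figure D5:**
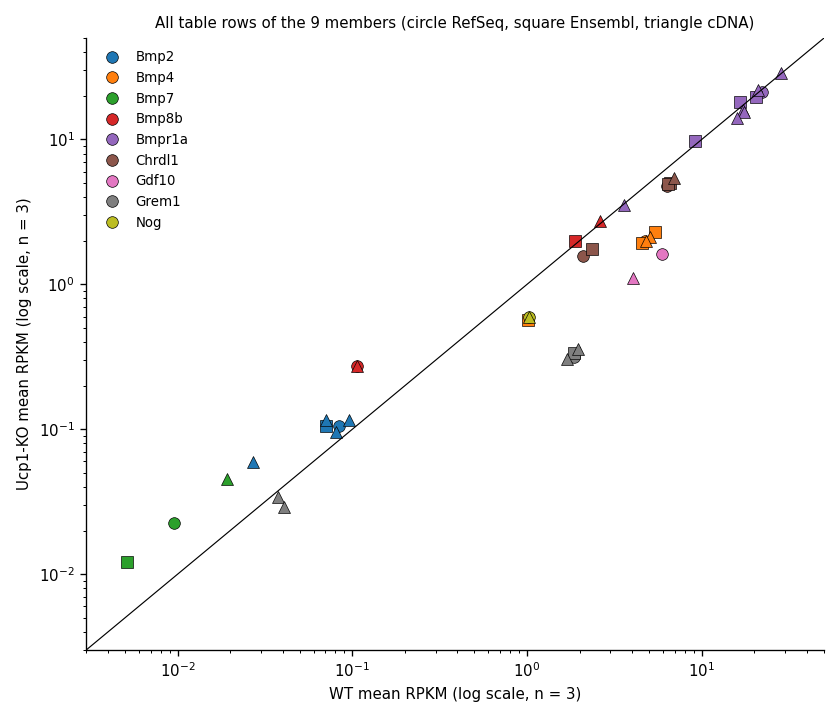
Mean RPKM in Ucp1-KO (vertical axis, log scale) against WT cultures (horizontal axis, log scale; n = 3 each) for all 45 rows of the 9 members, with colours for genes and symbols for annotation sources; the line marks equal means. The points of Gdf10, Bmp4 and Grem1 all lie below the line, and Bmpr1a points lie along it.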

How the data were processed

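Transcript abundance was measured in 6 cultures, 3 per genotype, grouped by sample labels; replicate numbers 10 to 15 are not shared between genotypes, so cultures were not paired. Reads (single, 50 bases) were mapped by the authors to mouse genome build 38 and, where unique, assigned to known transcripts in Genomatix, and the deposited unit is RPKM. The authors used DESeq2 1.4.5 for their own comparison. The annotation version is not given in the sources used here.

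Of 28890 RefSeq transcripts, the 16865 that averaged 0.5 RPKM or more entered limma 3.58.1 (R 4.3.3; empirical Bayes, intensity trend) on log2(RPKM + 1), adjusted by Benjamini-Hochberg with a threshold of 0.05. Library totals and whole reads were recovered from the steps of the RPKM values, for 16865 of 16865 tested transcripts. The relative tolerance of 1e-07 was picked from 4 after it had been tried on simulated data and on the deposited values. Recovered reads served limma-voom and the read numbers given. Tables used Python 3.11.15. Loci are from GENCODE M21.

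Members and lists were chosen with earlier results of these data known. Named were all members; per pathway list the 3 genes of highest mean and the 10 pathway genes of smallest unadjusted p; and the 5 genes most like Grem1 and Gdf10; 2 genes under this rule are not reported here. Bmp5, Bmp8a, Gdf3, Gdf6 and the single marker genes were named after their values were seen. Alternatives were other added values, filters, annotations and scalings, and leaving out each culture. P-values measure the spread between cultures.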

Additional observations from a re-analysis of the deposited data

How the results depend on the processing

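Of 12 alternatives, 3 (filters and annotations) cannot move the fold change of a given transcript. Over the other 9, with the other RefSeq transcript of Chrdl1 as 1 further value, 51 of 55 log2 fold changes of the members moved by less than the SD between cultures (the larger of the 2 genotypes, on the log2 scale) and 0 took the opposite sign. The other 4 were Grem1 (-1.09 as reported, -2.20 with 0.1 RPKM added and -2.47 by limma-voom) and Nog (-0.33, -0.66 and -0.74). The count of transcripts past the adjusted threshold of limma was 0, and also 0 by limma-voom and when each culture was left out in turn (0 to 0), but 22 with no minimum RPKM. Of these 22, 20 had a mean under 0.5 RPKM. Likewise 20 had at most 1 recovered read in every culture, with reads that were not recovered counted as 0. An unadjusted p under 0.05 was found for 935 transcripts (894 by limma-voom), 1456 with no minimum, 5193 over all annotations, and 317 to 1754 when 1 culture was left out (317 without WT 11, 1754 without WT 10). The pathway count of 10 ran from 2 to 18 when 1 culture was left out. Another scaling moved the median of all transcripts by at most 0.0105. Depth limits Bmp2, Bmp7 and Bmp8b, and the Ucp1-KO values of Grem1. No paired analysis was possible because the genotypes share no replicate numbers.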
